A study of Mus musculus with 8 samples.

Results

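Zinc finger protein genes named Zfp500 to Zfp999 were followed in CD11c-positive splenocytes of lupus-prone and control mice. The members were the genes of the deposited count table whose symbol is Zfp and a number from 500 to 999, leaving out those that start at 170 to 180 Mb on chromosome 1, 90 to 110 Mb on chromosome 4, and 10 to 20 or 40 to 50 Mb on chromosome 7. This left 160 of the 13786 genes in the table, and 10 further genes of the same naming lay inside those intervals. The symbols group genes by a naming scheme, not by a shared function. The groups were 4 C57BL/6 mice and 4 B6.SLE123 mice, all female and 7 weeks old, which the study obtained from The Jackson Laboratory. B6.SLE123 mice carry the Sle1, Sle2 and Sle3 susceptibility intervals on a C57BL/6 background, and neither strain received a treatment before the cells were taken. Selection on CD11c, the product of Itgax, retains dendritic cells but also some macrophages and lymphocytes, so each library is a mixture.

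Zinc finger proteins of the C2H2 kind fold short loops around a zinc ion, and arrays of such fingers read DNA sequence. Many of them carry a KRAB box at the amino terminus, which recruits the corepressor Trim28 (KAP1) and, through it, the H3K9 methyltransferase Setdb1, heterochromatin proteins and DNA methylation. KRAB zinc finger genes arose by repeated tandem duplication, stand in clusters on a few chromosomes, and are known for silencing retroelements and for differing between mouse strains. Members without the box include transcription factors of blood cells, subunits of chromatin complexes and proteins of ribosome assembly. A KRAB A box pattern was found in the longest open reading frame of 92 of the 160 genes. For the other 68, without the box means below only that the pattern was not found. The C2H2 finger pattern was found at least 10 times in 87 of them, 1 to 9 times in 66, and not at all in 7.

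A C57BL/6 library held 25761789 to 32931045 counts and a B6.SLE123 library 25563070 to 37367094, and levels are given as CPM, counts scaled to a common library size after TMM. Itgax stood at 1329 ± 77.9 CPM (SD, n = 4) in C57BL/6 and 1543 ± 93.4 CPM in B6.SLE123. All 5 markers of conventional dendritic cells on the list were detected. They were all higher in B6.SLE123, by 0.22 (Itgax) to 0.39 (Flt3) on the log2 scale. The levels of cell type markers differed between the strains. All 12 red pulp macrophage markers, C1qa, C1qb and C1qc among them, were lower in B6.SLE123. Their summed level was 13260 to 17080 CPM in C57BL/6 against 1919 to 3802 CPM, and none was at 0. The paper reports the fall of the C1q genes as one of dendritic cells. Its single-cell data place C1q subunits in monocyte-related dendritic cells. All 10 proliferation genes were higher, with sums of 648 to 715 CPM against 1190 to 1553 CPM. Of 8 B cell markers 6 were lower and 1 higher, of 7 type 1 conventional dendritic cell markers 5 were higher and 1 lower, and of 7 type 2 markers 2 were lower. Of 8 T cell markers 1 was higher and 1 lower, of 6 plasmacytoid markers 1 was higher and 1 lower, and of the 6 erythroid markers in the table, out of 8 listed, 5 were lower. In such a mixture, fewer cells of a type and less RNA per cell cannot be told apart, and the part of these shifts in the results for zinc finger genes was not tested.

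The coding sequences of 4 genes are shown first because they form pairs described further on. In 3 of 23 pairs of members with shared sequence, these among them, both genes passed the test and changed in opposite directions. Of single members 46.2% passed, beside 53.4% of all genes. Capitals mark the longest run of identical bases in the coding parts of a pair, and lower case marks 20 bases on either side. Zfp869 and Zfp868 lie on the minus strand of chromosome 8 and share a run of 123 bases that holds their KRAB A box pattern, read across exon junctions at chr8:69708158-69710707 and chr8:69613441-69619335. Zfp934, on the minus strand at chr13:62518442-62518681, and Zfp808, on the plus strand at chr13:62171199-62171438, share 200 bases within an exon. Coordinates are those of mm10 in GENCODE M21.
Zfp869: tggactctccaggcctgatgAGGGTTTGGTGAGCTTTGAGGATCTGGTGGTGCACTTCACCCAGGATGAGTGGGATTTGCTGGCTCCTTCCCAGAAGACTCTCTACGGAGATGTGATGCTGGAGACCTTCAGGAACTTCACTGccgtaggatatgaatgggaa
Zfp868: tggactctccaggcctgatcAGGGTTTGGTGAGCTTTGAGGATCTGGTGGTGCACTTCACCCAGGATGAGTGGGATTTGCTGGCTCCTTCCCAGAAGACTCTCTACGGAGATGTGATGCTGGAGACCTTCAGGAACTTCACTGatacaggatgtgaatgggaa
Zfp934: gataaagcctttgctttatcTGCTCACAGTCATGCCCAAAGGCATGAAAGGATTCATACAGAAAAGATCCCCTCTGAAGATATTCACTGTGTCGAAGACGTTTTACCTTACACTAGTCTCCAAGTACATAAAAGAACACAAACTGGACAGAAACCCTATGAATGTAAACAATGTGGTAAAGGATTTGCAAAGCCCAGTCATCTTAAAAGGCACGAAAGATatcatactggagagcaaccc
Zfp808: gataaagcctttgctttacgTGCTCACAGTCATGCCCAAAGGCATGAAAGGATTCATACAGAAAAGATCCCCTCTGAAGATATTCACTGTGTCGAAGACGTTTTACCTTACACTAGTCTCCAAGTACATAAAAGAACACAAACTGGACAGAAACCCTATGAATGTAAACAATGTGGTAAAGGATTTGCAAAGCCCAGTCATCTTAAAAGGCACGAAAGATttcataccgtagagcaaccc
The promoters of neighbours that moved apart, and that of the gene with the largest rise, are shown next. They are RefSeq windows of 250 bases before the start site (GRCm38.p6), with CCAAT, or ATTGG on the other strand, in capitals. They lie at chr8:69625549-69625798 (minus strand) for Zfp868, chr8:69716903-69717152 (minus strand) for Zfp869 and chr4:62965317-62965566 (plus strand) for Zfp618.
Zfp868: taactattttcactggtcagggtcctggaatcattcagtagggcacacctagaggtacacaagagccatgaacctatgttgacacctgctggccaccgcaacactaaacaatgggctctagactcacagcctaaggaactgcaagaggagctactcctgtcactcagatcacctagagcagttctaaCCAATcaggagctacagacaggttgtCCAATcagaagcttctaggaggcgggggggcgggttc
Zfp869: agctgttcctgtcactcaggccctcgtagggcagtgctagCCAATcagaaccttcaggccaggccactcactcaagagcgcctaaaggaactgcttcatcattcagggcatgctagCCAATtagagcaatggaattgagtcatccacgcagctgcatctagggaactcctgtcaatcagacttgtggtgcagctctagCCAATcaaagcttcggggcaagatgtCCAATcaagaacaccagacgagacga
Zfp618: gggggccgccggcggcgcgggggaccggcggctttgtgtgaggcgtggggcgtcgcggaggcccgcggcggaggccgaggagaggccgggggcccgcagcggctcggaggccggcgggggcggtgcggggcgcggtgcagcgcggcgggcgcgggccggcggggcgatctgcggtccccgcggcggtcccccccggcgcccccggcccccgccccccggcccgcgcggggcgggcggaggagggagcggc
A window was matched for 130 of the 160 members and for 10906 genes of the table. CCAAT on either strand, a motif chosen after the sequences were seen, was present in 68 member windows, which is 52.3%, against 36.5% of all windows. Among KRAB members it was present in 51 of 81 windows (63.0%), and among members without the box in 17 of 49 (34.7%). Zfp869 held 4 matches, a number reached by 1.61% of all windows, Zfp868 held 2 and Zfp618 none. Zfp618 held 48 CpG dinucleotides, a number reached by 0.275% of windows, against a median of 11 in members and 15 in all genes. Aligned end to end, the windows of Zfp868 and Zfp869 were identical in 57.7% of columns. GAGGAAGT on either strand, a core motif of PU.1, was present in 3 member windows (2.31%) and in 2.59% of all windows. These matches describe letters in a window and not occupied sites.

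Between the strains, zinc finger genes fell more often than they rose. Of the 160, 24 rose and 50 fell in B6.SLE123 at an adjusted p below 0.05 (edgeR's quasi-likelihood test), and 86 did not pass. The 74 that passed are 46.2% of the members, whereas 53.4% of all genes passed. For rises the shares were 15.0% of members and 26.7% of all genes, and for falls 31.2% and 26.6%. Of the Zfp genes numbered below 500, 24.1% rose and 26.2% fell. The median log2 fold change, B6.SLE123 over C57BL/6, was -0.094 over the members and -0.002 over all genes, and the median size of the change was 0.201 and 0.249. The 4 values of each strain did not overlap for 67 members, 22 higher and 45 lower, which is 41.9% against 48.9% of all genes. Summed over the members, the level was 4229, 4229, 4100 and 4124 CPM in C57BL/6 and 3916, 4044, 4014 and 4059 CPM in B6.SLE123. The sums of the strains did not overlap, but their means of 4170 and 4008 CPM were close.

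**Figure D1:**
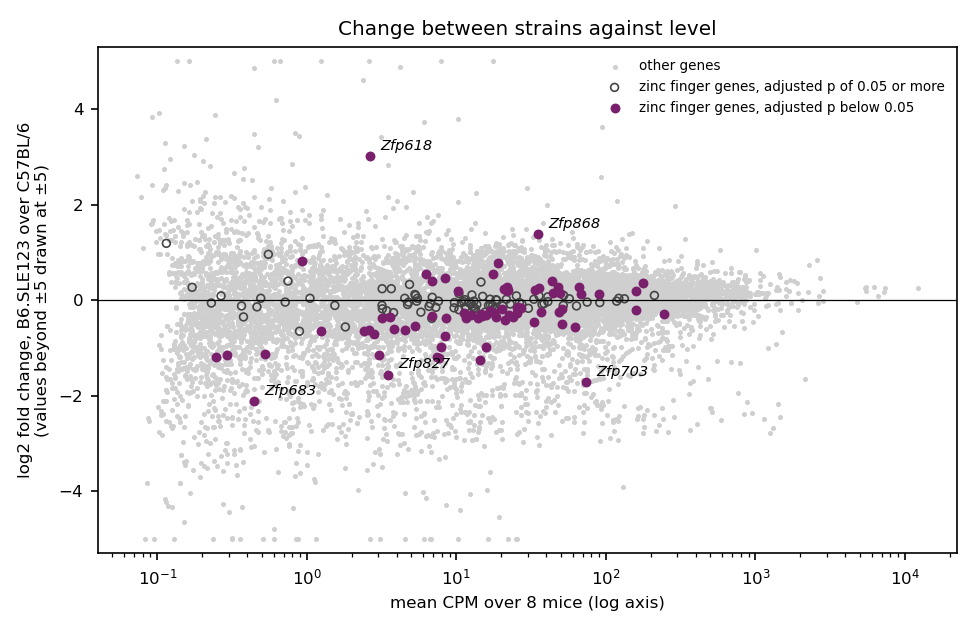
Log2 fold change of each gene, B6.SLE123 over C57BL/6 (vertical axis, values beyond 5 in size drawn at 5), against its mean CPM over 8 mice (logarithmic horizontal axis). Grey points are the other genes of the table, filled circles the 74 zinc finger genes with an adjusted p below 0.05 and open circles the other 86. Zfp618 stands highest at 3.02 and Zfp683 lowest at -2.11, and falls outnumber rises.

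The members were less abundant than the average gene, with a median of 400.5 counts per mouse against 742 for all genes, so they were also read by abundance. Among the 72 members with a mean of 50 to 500 counts, 5 rose and 25 fell (6.94% and 34.7%), beside 19.2% and 33.3% of all genes at that level. Among the 68 with 500 counts or more, 18 rose and 20 fell (26.5% and 29.4%), beside 34.8% and 25.3% of all genes. Among the 20 with under 50 counts, 1 rose and 5 fell (5.0% and 25.0%), beside 10.6% and 22.1%. By protein type, 10 KRAB members rose and 30 fell (10.9% and 32.6%), with a median log2 fold change of -0.128. Of the members without the box, 14 rose and 20 fell (20.6% and 29.4%), with a median of -0.048. Among all genes 26.7% rose and 26.6% fell. KRAB members were less abundant, at a median of 337 counts per mouse against 629. The difference between these types was not tested.

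Changes of more than 2-fold were uncommon. Of the 160 genes 12 had an adjusted p below 0.05 and changed by more than 2-fold, which is 7.5% against 11.1% of all genes. Only Zfp618 and Zfp868 did so upward, 1.25% of the members beside 2.76% of all genes, and 10 did so downward, 6.25% beside 8.29%. Leaving out each mouse in turn kept the call of 11 of these 12, and the exception was Zfp786.

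No member was near 0 counts in either strain by the limit used, at most 3 counts in each mouse of a strain and a mean of at least 10 in the other, whereas 56 genes of the table were (0.406%). With the limit raised to 10 counts there were 3, all low in B6.SLE123, beside 2.48% of the table. Zfp683 had 26, 14, 23 and 20 counts in C57BL/6 and 5, 7, 6 and 3 in B6.SLE123. Zfp982, a KRAB gene of chromosome 4, had 0.403 ± 0.082 CPM (SD, n = 4) and 0.179 ± 0.0332 CPM, a log2 fold change of -1.14 (SE 0.31, edgeR adjusted p = 0.0102). Zfp786 had 0.343 ± 0.149 and 0.149 ± 0.0643 CPM, with values of 0.199 to 0.488 against 0.0949 to 0.237, so its strains overlapped. Its fall of 1.19 on the log2 scale (adjusted p = 0.0411) was lost without C57BL/6 replicate 1 or 3 or B6.SLE123 replicate 1, 2 or 4, with adjusted p up to 0.131. A count of 0 occurred in a single member, Zfp575, with 4, 0, 0 and 4 counts in C57BL/6 and 6, 5, 8 and 2 in B6.SLE123. In every member the larger strain median was at least 5 counts, and 149 members had at least 10 counts in every mouse.

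The largest rise was that of Zfp618, which encodes a partner of Uhrf2 that binds chromatin with 5-hydroxymethylcytosine. The gene spans chr4:62965573-63139708. It had 15, 14, 20 and 18 counts in C57BL/6 and 149, 184, 128 and 141 in B6.SLE123. Every B6.SLE123 mouse stood far above every C57BL/6 mouse, at 3.79 to 5.55 CPM against 0.537 to 0.61. Means were 0.578 ± 0.0321 and 4.75 ± 0.732 CPM (SD, n = 4), an 8.13-fold rise (log2 fold change 3.02, SE 0.17, edgeR adjusted p = 4.28e-07). Without any single mouse the log2 fold change stayed between 2.93 and 3.12. Its start is 27.0 Mb from the nearest left-out interval of chromosome 4. Of the 23 other genes of the table within 1 Mb, 14 passed the test and 4 changed by more than 2-fold, and their median was 0.136. No exon of Zfp618 overlaps another annotated gene.

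The other large rises were in KRAB genes and in 2 genes without the box. Zfp868 had 18.2, 20.1, 18.7 and 20.2 CPM in C57BL/6 and 46.8, 52.7, 52.1 and 50.3 CPM in B6.SLE123 (log2 fold change 1.39, SE 0.06, adjusted p = 6.46e-08). Its neighbour Zfp930 rose from 13.9 ± 1.88 to 23.8 ± 0.746 CPM (0.77, SE 0.09). The KRAB genes Zfp971, Zfp808 and Zfp850 rose by 0.55, 0.54 and 0.46 on the log2 scale. Zfp574, without the box, had 36.2 to 38.7 CPM in C57BL/6 and 45.8 to 52.3 CPM in B6.SLE123 (0.40, adjusted p = 6.61e-05). For all of these the strains did not overlap. Zfp651 had 0.43 to 0.87 CPM against 0.918 to 1.66 CPM, and its rise of 0.82 (SE 0.29, adjusted p = 0.0336) was lost without C57BL/6 replicate 3 or 4 or B6.SLE123 replicate 3, with adjusted p of 0.0904, 0.0958 and 0.103. Of the transcript windows of 50 bases in Zfp971, 51.1% also occur in other genes, Zfp968 among them, and 28.2% of those in Zfp808 do, so reads of these genes could be split by the counting.

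**Figure D2:**
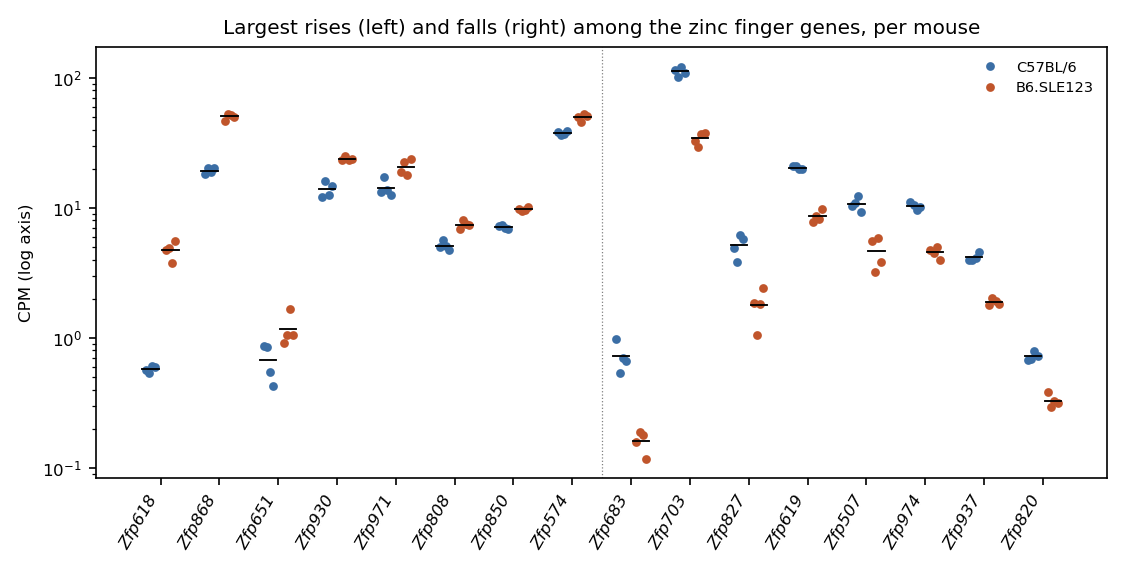
CPM of each mouse (points, logarithmic axis) and strain mean (black line) for the 8 largest rises (left of the dotted line) and the 8 largest falls (right) among zinc finger genes whose strains did not overlap, with adjusted p below 0.05. C57BL/6 mice are blue and B6.SLE123 mice orange; Zfp618 moves from 0.578 to 4.75 CPM and Zfp703 from 112 to 34.2 CPM.

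Among transcription factors of blood cells and relatives of the PU.1 assays, 3 of 6 fell, 1 rose and 2 did not pass, which is 66.7% called beside 53.4% of all genes. Zfp683 encodes Hobit, a factor of tissue-resident lymphocytes, and fell from 0.721 ± 0.189 to 0.160 ± 0.0309 CPM (log2 fold change -2.11, SE 0.31, adjusted p = 0.000195). Of the T cell markers measured beside it, Lck was lower (-0.37), Cd8a higher (0.64) and the other 6 did not pass. Zfp703 encodes a transcriptional corepressor of the NET family. It had 115, 102, 122 and 109 CPM in C57BL/6 and 32.5, 29.6, 37.0 and 37.8 CPM in B6.SLE123. No mouse of B6.SLE123 came near the C57BL/6 range, and the log2 fold change was -1.71 (SE 0.08, adjusted p = 1.79e-07). At 33.0 CPM per kilobase of exon in C57BL/6 it was among the more abundant members, and it fell to 10.1 in B6.SLE123. Its NET family relative Zfp503 had few reads, at 2 to 15 counts per mouse, and did not pass (0.09, SE 0.47). Zfp608, known as a repressor of the recombinase gene Rag1 in thymocytes, had 37.0 to 41.4 CPM against 24.1 to 30.4 CPM (-0.46, SE 0.07, adjusted p = 0.000332). Zfp831 rose from 32.6 ± 4.45 to 39.0 ± 2.62 CPM, with overlapping strains (0.26, adjusted p = 0.0271), and was lost without C57BL/6 replicate 1, 3 or 4 or B6.SLE123 replicate 4, with adjusted p of 0.0671 to 0.0798.

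Zfp521, a regulator of early blood and B cell development after which a luciferase reporter of the study's PU.1 assays is named, did not pass the test. It had 3.59, 4.11, 4.27 and 5.79 CPM in C57BL/6 and 4.87, 4.09, 4.32 and 5.12 CPM in B6.SLE123. All B6.SLE123 values lay within the range of the C57BL/6 mice. The log2 fold change was 0.04 (SE 0.15, adjusted p = 0.837), and it ranged from -0.044 to 0.19 when single mice were left out. The macrophage markers of the same libraries were lower with a median log2 fold change of -2.38.

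Of 7 members of chromatin complexes, 2 rose, 3 fell and 2 did not pass, so that 71.4% were called beside 53.4% of all genes. Zfp827, which recruits the NuRD complex, fell from 5.16 ± 1.05 to 1.78 ± 0.556 CPM (-1.56, SE 0.23, adjusted p = 0.000207). Zfp532, Zfp592 and Zfp687 are the mouse counterparts of proteins that bind Zmynd8 in a shared complex, and they did not move alike. Zfp532 had 10.1, 10.7, 11.6 and 9.86 CPM in C57BL/6 and 7.66, 6.07, 4.91 and 6.57 CPM in B6.SLE123 (-0.75, SE 0.12, adjusted p = 0.000477). Zfp592 had 119 ± 4.5 and 117 ± 3.81 CPM, and Zfp687 had 39.6 ± 3.86 and 37.7 ± 0.613 CPM, and neither passed. Zfp609, linked to cohesin and Integrator, fell slightly (-0.18, adjusted p = 0.0146) with overlapping strains. Zfp644, a partner of the G9a and GLP methyltransferases, rose by 0.16 (adjusted p = 0.0149), a call lost without C57BL/6 replicate 4 (adjusted p = 0.0547).

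The list of repressors of retroelements and imprinted loci held 4 members, of which 1 rose, 2 fell and 1 did not pass (75.0% called, beside 53.4% of all genes). Zfp568, the KRAB repressor of placental Igf2 transcripts, had 18.0 to 21.1 CPM in C57BL/6 and 23.1 to 25.4 CPM in B6.SLE123 (0.27, SE 0.06, adjusted p = 0.00339). Zfp932 had 18.2 to 21.6 CPM against 15.5 to 17.1 (-0.26, adjusted p = 0.00926), and Zfp961 had 23.5 to 26.0 against 19.5 to 20.2 (-0.32, adjusted p = 0.000386). The strains did not overlap for any of these 3, although the changes were small, a 1.21-fold rise and falls of 1.2-fold and 1.25-fold. Zfp809, which silences integrated murine leukaemia viruses, had 50.4 ± 3.39 and 54.1 ± 4.36 CPM and did not pass (0.10, SE 0.07, adjusted p = 0.213).

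Of 5 genes for proteins of ribosomes and RNA, 2 rose and 3 did not pass. The share called was below the 53.4% of all genes. Zfp638, an RNA-binding nuclear protein, rose from 148 ± 3.79 to 170 ± 1.84 CPM (0.19, SE 0.04, adjusted p = 0.00099), with no overlap. Zfp622, a factor of large ribosomal subunit assembly, rose by 0.12 with an adjusted p of 0.0497, and was lost without C57BL/6 replicate 1, 2 or 3 or B6.SLE123 replicate 1, 3 or 4, with adjusted p up to 0.13. Zfp598, the ubiquitin ligase that marks collided ribosomes, stood at 92.6 ± 4.09 and 89.3 ± 3.34 CPM, and did not pass. Zfp593 and Zfp830 did not pass either (-0.04 and -0.12).

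The remaining large falls were mostly KRAB genes. Zfp619, with 33 finger patterns, had 20.9, 21.1, 19.8 and 19.8 CPM in C57BL/6 and 7.85, 8.63, 8.2 and 9.76 CPM in B6.SLE123 (-1.25, SE 0.08, adjusted p = 5.44e-07). The gene starts 0.482 Mb from the edge of the left-out interval at 40 to 50 Mb of chromosome 7, and no other gene of the table lies within 1 Mb. Zfp974 fell from 10.3 ± 0.619 to 4.54 ± 0.423 CPM (-1.18, SE 0.09), Zfp937 from 4.16 ± 0.278 to 1.89 ± 0.101 CPM (-1.14, SE 0.12), and Zfp820 from 0.723 ± 0.0506 to 0.329 ± 0.036 CPM (-1.13, SE 0.23). Zfp507, without the box, fell from 10.7 ± 1.24 to 4.64 ± 1.3 CPM (-1.21, SE 0.18, adjusted p = 0.000198), and 2326 of its 8231 exon bases overlap genes on the other strand. Because the strand setting of the counting is not given in the sources used here, reads in that overlap are uncertain. Windows shared with other genes made up 29.4% of Zfp937 and 16.8% of Zfp974.

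By level per kilobase of exon, the 5 most abundant members over all 8 mice were Zfp869 (38.9 CPM per kilobase), Zfp710 (35.5), Zfp740 (31.0), Zfp706 (26.6) and Zfp513 (25.7). The first place of Zfp869 rests on a short annotated length of 1590 bases, all of it coding, from a gene model whose coordinates differ from those in the count table. Zfp869, Zfp710 and Zfp740 fell, by 0.57, 0.29 and 0.21 on the log2 scale, and their strains did not overlap. Zfp710 had 255 to 283 CPM in C57BL/6 and 209 to 233 CPM in B6.SLE123, and Zfp740 had 162 to 174 against 142 to 156. Zfp706 (0.03) and Zfp513 (-0.12, adjusted p = 0.0556) did not pass. The members with the smallest differences were Zfp994, at 18.7 ± 0.776 and 18.6 ± 1.02 CPM, and Zfp995, at 11.4 ± 0.444 and 11.4 ± 0.605 CPM.

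The members were also read by their clusters along the chromosomes. With neighbouring starts at most 1 Mb apart and at least 3 members, 95 members fell into 17 clusters and 65 lay outside. Each cluster held at least 1 member that passed the test, 7 held 3 or more, and 5 held both a rise and a fall. Of all members 46.2% passed, beside 53.4% of all genes, so a call in every cluster does not set the clusters apart. In the largest, 14 KRAB genes at chr17:21383748-22867134, 1 rose, 3 fell and 10 did not pass, with log2 fold changes from -1.13 (Zfp820) to 0.21 (Zfp758) and a median of -0.081. Zfp994 and Zfp995, the members with the smallest change, stand in the same cluster. In 2 other clusters every log2 fold change lay below 0. The 3 genes at chr15:75940952-76925448, Zfp623, Zfp707 and Zfp647, ranged from -0.64 to -0.15 and were lower without overlap between the strains, and Zfp707 and Zfp647 passed, the latter not without C57BL/6 replicate 1 or 4 (adjusted p up to 0.0569). The 6 genes at chr7:6131491-7209998 ranged from -0.56 to -0.09, and Zfp772 and Zfp787 passed, each losing its call in 3 of the fits without 1 mouse (adjusted p up to 0.0617 and 0.0716).

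A cluster of 6 KRAB genes at chr8:69209038-69791178 held the widest spread. In chromosome order, Zfp930 (0.77) and Zfp868 (1.39) rose, Zfp964 (-0.65) and Zfp869 (-0.57) fell, Zfp963 did not pass (-0.22, adjusted p = 0.219) and Zfp866 fell (-0.25). Zfp964, which lies between Zfp868 and Zfp869, had 3.44, 2.92, 2.81 and 2.68 CPM in C57BL/6 and 1.84, 1.88, 1.86 and 1.97 CPM in B6.SLE123. Zfp866 had 38.6 to 41.3 CPM against 32.8 to 34.4. In each of the 5 genes that passed, the strains did not overlap. Further along, the 4 KRAB genes at chr8:71882019-71993792 included 3 falls of similar size, in Zfp709 (-0.35), Zfp617 (-0.37) and Zfp961 (-0.32), and Zfp882 did not pass (0.10). Chromosome 8 held 16 members in all, of which 2 rose and 9 fell (12.5% and 56.2%, beside 26.7% and 26.6% of all genes).

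On chromosome 7, which held 37 members, 6 rose and 12 fell (16.2% and 32.4%, beside 26.7% and 26.6% of all genes). These shares of all genes, 53.4% in either direction, also stand beside the cluster counts that follow. The 3 KRAB genes at chr7:27807196-28014115 all passed, in both directions. Zfp626 fell by 0.17 on the log2 scale, Zfp974 by 1.18, and Zfp850 rose from 7.11 ± 0.22 to 9.77 ± 0.343 CPM. The call of Zfp626 was lost without C57BL/6 replicate 3 (adjusted p = 0.0513). The 3 other genes of the table in that stretch did not pass. At chr7:4915217-5053723, a cluster of 5 genes without the box, 3 fell and 2 did not pass. Zfp579 was the clearest, with 23.2, 20.6, 19 and 21.4 CPM against 8.73, 9.81, 10.7 and 13.4 CPM (-0.99, SE 0.12, adjusted p = 4.44e-05). Zfp580 fell by 0.62 and Zfp628 by 0.14, the latter a call lost without C57BL/6 replicate 1, 3 or 4 or B6.SLE123 replicate 1, 2 or 4, with adjusted p up to 0.116. Of the 10 members at chr7:127233061-127885996, 2 rose and 2 fell, with log2 fold changes from -0.31 to 0.24. The rise of Zfp646 was lost without C57BL/6 replicate 3 or 4 or B6.SLE123 replicate 1, 3 or 4 (adjusted p up to 0.108). On chromosome 17 a second cluster of 7 KRAB genes, at chr17:32765496-33110705, held 3 falls, from -0.18 (Zfp952) to -0.60 (Zfp763). The call of Zfp952 was lost without C57BL/6 replicate 2, 3 or 4 or B6.SLE123 replicate 1 (adjusted p up to 0.0764), and that of Zfp563 without C57BL/6 replicate 1 (0.0642). Of 25 members on chromosome 17 in all, 1 rose and 7 fell (4.0% and 28.0%, beside 26.7% and 26.6% of all genes).

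**Figure D3:**
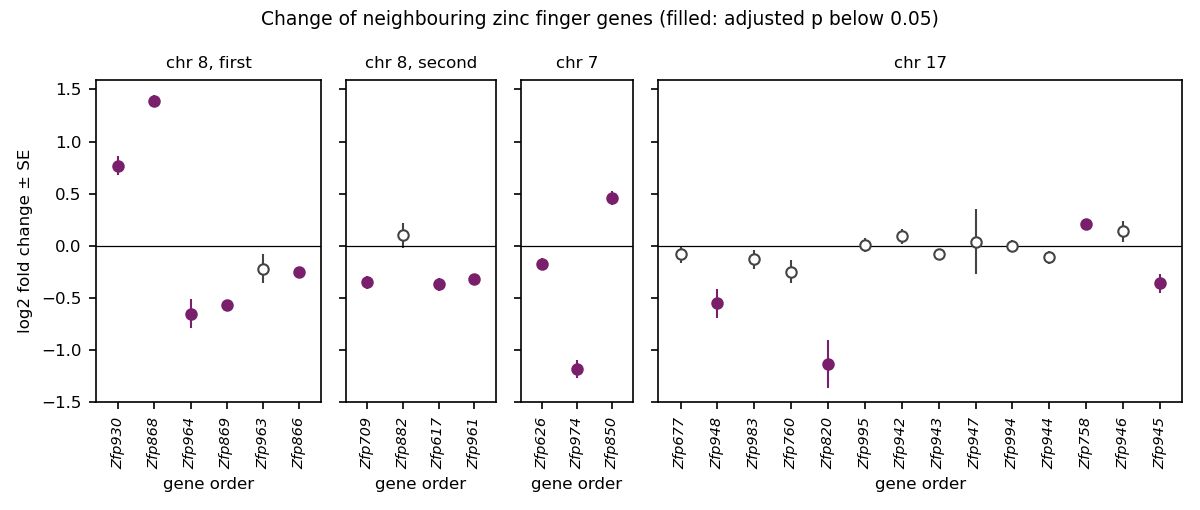
Log2 fold change, B6.SLE123 over C57BL/6, with its standard error (bars) for the zinc finger genes of 4 clusters in chromosome order, 4 mice a strain. Filled points passed an adjusted p below 0.05; in the first cluster of chromosome 8 the changes run from 1.39 (Zfp868) to -0.65 (Zfp964), and in that of chromosome 17 most points lie near 0.

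Members that share transcript sequence were compared as pairs. Pairs were taken by shared windows alone, which need not mean common descent. Zfp706 and Zfp575, without the box, each paired with the KRAB gene Zfp934. There were 23 pairs of members, over 27 genes, with at least 50 identical windows of 50 bases in their annotated transcripts. Both genes passed the test in 3 pairs, and in all 3 they moved in opposite directions. Of single members 46.2% passed, beside 53.4% of all genes. In 1 of the 3 pairs, Zfp971 and Zfp970, the call of Zfp970 was lost in 5 of the fits without 1 mouse. The pair with the most windows in common, Zfp991 and Zfp992 (1668), moved the same way, by -0.27 and -0.16 on the log2 scale. Of these only Zfp991 passed, a call lost in 3 of the fits without 1 mouse. Zfp993 and Zfp991, with 1003 windows, also both had changes below 0 (-0.11 and -0.27). Zfp869 and Zfp868, whose shared KRAB-coding run is printed above, have 144 such windows, 9.34% and 5.07% of their own. Zfp869 had 72.0, 74.2, 71.5 and 78.1 CPM in C57BL/6 and 47.7, 49.5, 51.5 and 50.6 CPM in B6.SLE123, a fall of 0.57 on the log2 scale (SE 0.04, adjusted p = 2.34e-06), whereas Zfp868 rose. Added together, the pair had 93.2 ± 3.89 CPM in C57BL/6 and 100.3 ± 4.01 CPM in B6.SLE123, a log2 ratio of 0.11. The sums of single mice overlapped, at 90.1 to 98.2 CPM against 94.5 to 104 CPM.

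Zfp934 and Zfp808, with the shared run of 200 bases printed above, have 846 windows in common, 14.4% and 19.6% of their own. Zfp934 had 9.95, 10.6, 10.4 and 11.1 CPM in C57BL/6 and 5.0, 6.05, 5.15 and 5.24 CPM in B6.SLE123 (-0.97, SE 0.09, adjusted p = 6.1e-06). Zfp808 had 4.99, 5.64, 5.06 and 4.73 CPM and then 6.93, 8.01, 7.46 and 7.36 CPM (0.54, SE 0.09, adjusted p = 0.000579). Zfp934 was therefore the more abundant of the pair in every C57BL/6 mouse and Zfp808 in every B6.SLE123 mouse. Their sum went from 15.6 ± 0.532 to 12.8 ± 0.898 CPM, a log2 ratio of -0.28. Zfp971 and Zfp970 share a coding run of 165 bases and 245 windows. Zfp971 rose, as given above, and Zfp970 fell from 3.6 ± 0.286 to 2.8 ± 0.415 CPM (-0.37, SE 0.14, adjusted p = 0.0432). The call of Zfp970 was lost without C57BL/6 replicate 2, 3 or 4 or B6.SLE123 replicate 1 or 2, with adjusted p up to 0.102. How the authors' counting treated reads that match both genes of a pair is not given in the sources used here, and its part in these opposite changes was not tested.

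**Figure D4:**
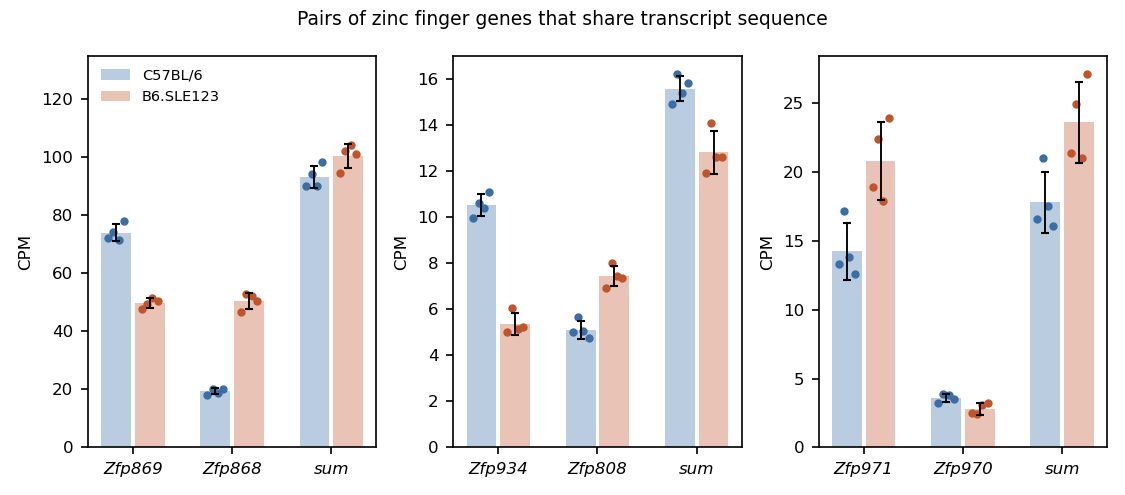
CPM of the 3 pairs of zinc finger genes that share transcript sequence and both passed the test, and of their sum; bars are means, whiskers SD over 4 mice and points single mice (C57BL/6 blue, B6.SLE123 orange). The genes of a pair move in opposite directions; the sum of Zfp869 and Zfp868 goes from 93.2 to 100.3 CPM.

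The cofactors through which KRAB proteins act were all in the table, and they rose or did not pass. Of 20 cofactor genes 13 rose, none fell and 7 did not pass, by edgeR's quasi-likelihood test with adjustment over all genes. At an unadjusted p below 0.05, 14 were higher and 0 lower, and DESeq2 and limma-voom each called 13 higher and 0 lower. The 7 that did not pass lay between -0.08 and 0.13 on the log2 scale. The share of 65.0% that rose stands beside 26.7% of all genes, and the median log2 fold change was 0.192 beside -0.002. The cofactors were abundant, at a median of 3524 counts per mouse, and of all genes with 500 counts or more 34.8% rose, with a median change of 0.041 on the log2 scale. Trim28 had 207, 205, 205 and 216 CPM in C57BL/6 and 265, 264, 272 and 248 CPM in B6.SLE123 (0.33, SE 0.04, adjusted p = 5.96e-05). Setdb1, the methyltransferase that Trim28 recruits, had 90.6 ± 1.21 and 93.0 ± 3.6 CPM and did not pass (0.04). The heterochromatin protein genes Cbx5, Cbx3 and Cbx1 rose by 0.67, 0.40 and 0.15.

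The largest changes among the cofactors were in the DNA methylation genes Uhrf1 and Dnmt1 and in Resf1, a factor of retroelement silencing. Uhrf1, which guides maintenance methylation, had 64.9, 71.7, 58.9 and 62.1 CPM in C57BL/6 and 150, 169, 151 and 129 CPM in B6.SLE123 (1.22, SE 0.08, adjusted p = 9.73e-07). Dnmt1, the maintenance methyltransferase, rose from 121 ± 10 to 198 ± 18.3 CPM (0.71, SE 0.07). Resf1 rose from 127 ± 7.12 to 203 ± 18.3 CPM (0.68, SE 0.07). The de novo methyltransferase gene Dnmt3a did not pass (0.08, adjusted p = 0.172), nor did the HUSH complex genes Tasor (-0.08) and Mphosph8 (-0.07), while their partner Pphln1 rose by 0.19. Uhrf1 and Dnmt1 are also transcribed in cycling cells, and the 10 proliferation genes of the same libraries rose by 0.53 (Pcna) to 1.28 (Mki67). The part of proliferation in the rise of the cofactors was not tested.

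**Figure D5:**
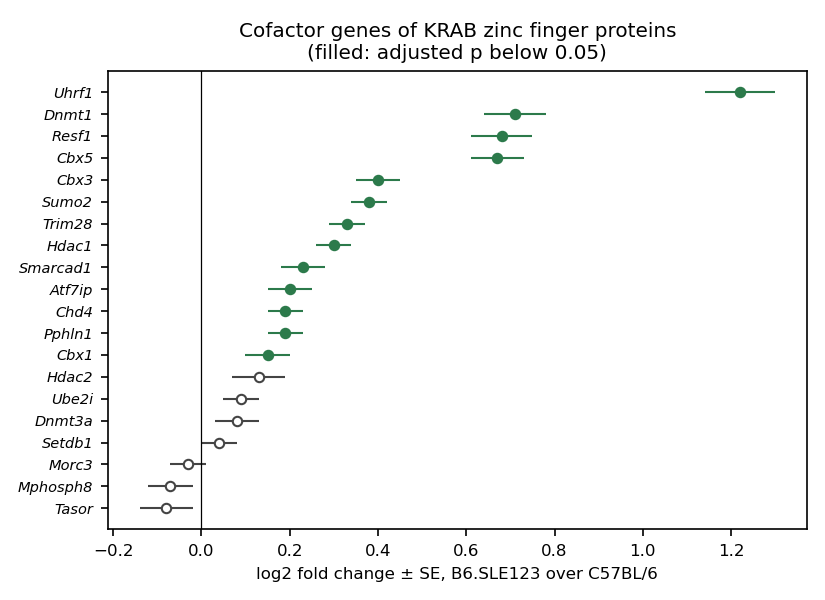
Log2 fold change, B6.SLE123 over C57BL/6, with its standard error (bars) for 20 cofactor genes of KRAB zinc finger proteins, 4 mice a strain. Filled points passed an adjusted p below 0.05; Uhrf1 stands furthest to the right at 1.22, and Setdb1, Morc3, Mphosph8 and Tasor lie close to 0.

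Genes named Zfp with a number below 500, outside the same intervals, were taken as the nearest set by name. Of 145 such genes 35 rose and 38 fell, 24.1% and 26.2%, with a median log2 fold change of -0.018. For the 160 genes from 500 to 999 the shares were 15.0% and 31.2%, and the difference between these sets was not tested. The left-out intervals lie on chromosomes 1, 4 and 7, and no member lay on chromosome 1. On these chromosomes 6 of 48 members were called and changed by more than 2-fold (12.5%). Among all genes there outside the intervals, chromosome 1 included, the share was 11.9%. On the other chromosomes 6 of 112 were (5.36%), beside 10.3% of all genes. All 50 falls and 24 rises rest on 4 mice a strain, and 55 of the 74 calls held without any single mouse.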

How the data were processed

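Raw counts per gene for 4 C57BL/6 and 4 B6.SLE123 mice were used as deposited. The authors had prepared stranded mRNA libraries and, per the submitters' processing notes and the methods, used FastQC, cutadapt, STAR (mm10), featureCounts and DESeq2; tool versions and strand and multiple-mapping settings are not given in the sources used here. The 7 columns of the authors' own comparison (mean signal, fold changes, p-values) were not used. The labelled genotype number rises from mouse to mouse, so strains were taken from the sample titles.

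All 13786 genes entered edgeR 4.0.16 in R 4.3.3, with TMM factors, the quasi-likelihood F test for strain and Benjamini-Hochberg adjustment, and the code was tested on simulated data. CPM use TMM-scaled totals, and no rows were filtered. Members and gene lists were chosen with earlier results of these data known. Named genes were members with at most 3 counts in each mouse of a strain, the 8 largest rises and 8 largest falls without overlap (mean count of 20 or more in the higher strain), members of the role lists, the 5 highest by CPM per kilobase, the 3 cofactors and members of clusters with 3 calls, and the 2 smallest changes; Zfp982, Zfp786, Zfp575, Zfp934, Zfp970, Zfp623, Zfp707, Zfp647, Zfp772, Zfp787 and the neighbours of the pairs were named after their values were seen. Exon lengths came from GENCODE M21, matched for 13777 genes. No protein table was used: KRAB and C2H2 patterns were counted in the longest open reading frame of GENCODE transcripts, and these counts and the shared windows were added after seeing the data. Replicate numbers do not mark shared animals. Each library is labelled as a separate mouse, and counts within a strain differed by more than sampling noise in every pair. Alternatives were relative log expression factors, at least 10 counts in every mouse, DESeq2 1.42.0, limma-voom (limma 3.58.1), a replicate block, other cluster distances of 500000 and 2000000 bases, and each mouse left out in turn. Marker lists covered red pulp macrophages, B, T and erythroid cells, dendritic cell types and proliferation.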

Additional observations from a re-analysis of the deposited data

Results flagged for a closer look

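Zfp593, a factor of large ribosomal subunit assembly, had a log2 CPM of -0.73 in C57BL/6 replicate 2, apart from the other 3 mice of the strain (group median -0.25). It was the single such value among the 88 groups of 4 mice compared, where chance gives about 4.4. Its counts were 20, 14, 26 and 24 in C57BL/6 and 32, 18, 18 and 21 in B6.SLE123, and it did not pass the test in any fit.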

How the results depend on the processing

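Of 90 values that answer a comparison, recomputed under the alternatives, 89 kept their direction and stayed within the tolerance, which was 1.5 times for most counts and 1 SD between mice for the median. The exception was the number of members near 0 counts, which went from 0 to 3 when the limit was raised to 10 counts. Leaving out single mice gave 63 to 73 members called, 18 to 23 higher and 45 to 53 lower, 11 to 13 changed more than 2-fold, a median log2 fold change of -0.12 to -0.071, and 12 to 13 cofactors called. With at least 10 counts in every mouse, 9 members instead of 12 changed more than 2-fold. That limit left Zfp683, Zfp786, Zfp982 and Zfp820 untested, so the 9 include a gene that was not among the 12. With the replicate number as a block, 73 members were called, of which 70 were also called without it, and Zfp651 (adjusted p = 0.0544) and Zfp622 (adjusted p = 0.0575) were among those lost. The numbers do not pair the mice, since same-numbered mice correlated in their deviations by -0.0288 to 0.115 and 2 of 4 correlated best with their own number. For single genes 529 of 569 values were unchanged in direction and call, 19 lost and 3 gained a call, and 18 changed sign, all in 7 genes close to no change. Zfp995 was -0.001 with at least 10 counts in every mouse and Zfp503 was -0.062 with limma-voom. Without single mice, Zfp503 ranged from -0.283 to 0.34, Zfp521 from -0.044 to 0.19, Zfp592 from -0.05 to 0.006, Zfp593 from -0.27 to 0.11, Zfp706 from -0.014 to 0.05, Zfp994 from -0.05 to 0.029 and Zfp995 from -0.034 to 0.04. The cause of these changes was not tested. At 20 members under 50 counts per mouse, small changes could not be detected.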

Other observations

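The 10 genes of the same naming inside the left-out intervals all lie on chromosome 7, and 7 of them passed the test, 3 higher and 4 lower in B6.SLE123 (70.0% called, beside 53.4% of all genes). Zfp976 had 46, 47, 53 and 47 counts in C57BL/6 and 2, 8, 3 and 4 counts in B6.SLE123, a log2 fold change of -3.62 (SE 0.3, edgeR adjusted p = 3.12e-06). Zfp658 had 15.0 ± 1.33 and 33.4 ± 2.62 CPM (SD, n = 4), a rise of 1.16, and its neighbours Zfp719 and Zfp819 rose by 0.61 and 1.08. Zfp819 stands on the list of retroelement repressors and had 1.16 to 1.92 CPM in C57BL/6 against 2.44 to 3.50 CPM in B6.SLE123.

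Members that share more than 10% of their transcript windows with other genes passed the test in 10 of 31 cases, 2 higher and 8 lower, and the other members in 64 of 129 cases, 22 higher and 42 lower. These shares, 32.3% and 49.6%, both lie below the 53.4% of all genes, and the groups also differed in abundance, with medians of 230.2 and 470.2 counts per mouse. Members whose exons overlap another gene passed in 21 of 53 cases (39.6%) and the others in 53 of 107 (49.5%), at medians of 515 and 351 counts per mouse. Neither difference was tested.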
